A study of Mus musculus with 16 samples.

Results

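The genes of the cytosolic ribosomal proteins were followed in 16 mouse liver RNA libraries. Members were taken by symbol: every gene named Rpl or Rps with a number, plus Rpsa, Rplp0, Rplp1 and Rplp2, without the Rps6k kinases and without symbols marked as pseudogenes. This gave 92 of the 48051 rows with a symbol. Of these, 77 encode the standard proteins of the ribosome, called core members here, 46 in the large and 31 in the small subunit. The other 15 are paralogs, transcribed copies, and Rps19bp1, which matches the name but encodes an RPS19-binding protein. There were 83 members with enough reads to test, 74 of them core. The 9 that failed the filter on low counts were Rpl10l, Rpl23a, Rpl24, Rpl39l, Rpl3l, Rpl6l, Rps12l1, Rps29 and Rps3a3.

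The C57BL/6J livers formed 4 groups of 4 libraries, each labelled with a time of 10 days. KO-EtOH is hepatic Tsc1 knockout under the Gao-binge regimen, chronic alcohol feeding closed by an alcohol gavage. KO-ctr is the same genotype on control diet, WT-EtOH is wild type under the regimen, and WT-ctr is wild type on control diet. The labels give neither the Cre driver nor the deleted exon, and it is not stated whether each library is 1 animal, so a p-value sets a difference against library-to-library spread that may be technical. Sex and age are not given in the labels.

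Ribosomal protein mRNAs are the best known carriers of a 5' terminal oligopyrimidine tract (TOP), a run of C and T bases at the very start of the transcript. Through this tract the kinase mTORC1 controls how strongly they are translated, with LARP1 and the 4E-BP proteins acting when mTORC1 is low. TSC1 is part of the complex that restrains mTORC1. Each ribosome needs nearly all of these proteins in equal numbers, and unassembled RPL5 and RPL11 can bind MDM2 and so raise p53.

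Library totals ran from 14.7 to 21.7 M counts, of which 54530 to 119694 fell in the members. Tsc1 was counted at 11.8, 14.9, 14.01 and 16.4 CPM in KO-EtOH, 23.4, 16.8, 16.2 and 17.7 CPM in KO-ctr, 19.2, 19.8, 18.7 and 15.8 CPM in WT-EtOH, and 24.3, 27.6, 24.9 and 29.7 CPM in WT-ctr. CPM are read counts put on a common scale by library size after TMM adjustment. The genotypes did not overlap on control diet and did after ethanol. By edgeR, Tsc1 was lower in the knockout on control diet (-0.52 ± 0.13 log2, SE, adjusted p = 0.0147) and after ethanol (-0.36 ± 0.13, adjusted p = 0.0386). It was also lower with ethanol in wild type (-0.53 ± 0.13, adjusted p = 0.00488). With ethanol in the knockout it was not called (-0.37 ± 0.13, adjusted p = 0.0685). All 8 hepatocyte markers were detected. Their summed level was 52650 to 104700 CPM in KO-EtOH, 62390 to 64970 in KO-ctr, 118000 to 153600 in WT-EtOH and 104300 to 121500 in WT-ctr. Of the 8, 1 was called lower and 0 higher with Tsc1 loss on control diet, against 4.91 and 7.4% of all genes. After ethanol 3 were lower and 0 higher with Tsc1 loss, against 19.1 and 19.6%. With ethanol in wild type 0 were lower and 4 higher, against 15.9 and 17.6%. The 6 cholangiocyte markers summed to 179 to 837 CPM in KO-EtOH and 278 to 528 in KO-ctr, against 42.8 to 50.3 in WT-EtOH and 51.6 to 78.7 in WT-ctr. The 7 macrophage and monocyte markers summed to 129 to 309 CPM in KO-EtOH, 136 to 205 in KO-ctr, 55.8 to 76.7 in WT-EtOH and 119 to 174 in WT-ctr. The 4 markers of dividing cells summed to 9.11 to 25.9 CPM in KO-EtOH, 5.30 to 8.97 in KO-ctr, 2.87 to 6.08 in WT-EtOH and 3.13 to 6.81 in WT-ctr. In KO-EtOH against WT-EtOH 19.6% of all genes were called higher. Of the markers tested, 3 of 3 of dividing cells, 7 of 7 of macrophages and monocytes and 5 of 6 of cholangiocytes were. In KO-ctr against WT-ctr these were 0, 1 and 3, against 7.4% of all genes. With ethanol in wild type 6 of the 7 macrophage and monocyte markers were called lower, against 15.9% of all genes. None of these markers was at 0 in every library. The part of these shifts in the results on ribosomal protein genes was not tested, and in bulk liver fewer cells of a type cannot be told apart from less RNA per cell.

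Start sites were read from RefSeq (GRCm38.p6), which gave one for 57 of the 77 core members. The longest run of C or T touching the stretch from 20 bases before to 30 bases after the annotated start, on the gene's strand, had a median of 10 bases in core members and of 6 bases over 27025 genes. A run of at least 8 bases was present in 39 core members, or 68.4%, against 26.4% of all genes. The windows below show this run, in capitals, for members whose counts are described further on. The first 4 belong to genes that were lower in the knockout and have a run of 8 bases or more. The next 3 were lower in the knockout and have a shorter run. The last 4 were called in neither genotype comparison.
Rps25, chr9:44407686-44407715, plus strand: accgggCTTCCTTTTTTTCCgacatcttag
Rplp2, chr7:141447640-141447669, plus strand: tcagcgTCTTCCTTTCgccgccggacgccg
Rps9, chr7:3704029-3704058, plus strand: gccttgTCTCTCTTTgtctcgggcctgagt
Rpl22l1, chr3:28805503-28805532, plus strand: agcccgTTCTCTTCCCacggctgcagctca
Rps3a1, chr3:86142619-86142648, minus strand: agacggcgCTCCCCgcccggctcgcgttaa
Rps19, chr7:24884913-24884942, plus strand: ggagggCTCTCCCacgcggtcaccacgccg
Rpsa, chr9:120127780-120127809, plus strand: cgcccgTCCTTTCgcgctacccggggacgg
Rpl35, chr2:39005115-39005144, minus strand: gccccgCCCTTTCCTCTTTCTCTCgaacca
Rps26, chr10:128626480-128626509, minus strand: gccggaTCCTCTTTCgagtcttggctccaa
Rps27l, chr9:66946058-66946087, plus strand: cctccaCTCCTCTCCactcctccccgccgc
Rpl41, chr10:128549148-128549177, minus strand: ggccggCTCggaagtgacgacaccgagcac
The run was 18 bases in Rpl35 and 14 in Rps25, 3 in Rpl41 and 6 in Rps3a1. A run in this window is a description of letters, since annotated starts can lie some bases off the true one.

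Ribosomal protein transcripts took a smaller part of the knockout libraries. The members held 0.407, 0.500, 0.315 and 0.315% of the counts in KO-EtOH and 0.434, 0.437, 0.392 and 0.415% in KO-ctr. They held 0.499, 0.563, 0.492 and 0.473% in WT-EtOH and 0.643, 0.556, 0.496 and 0.516% in WT-ctr. All KO-ctr libraries lay below all WT-ctr libraries, while KO-EtOH library 2 lay inside the WT-EtOH range. The group means were 0.384 ± 0.0886% in KO-EtOH, 0.419 ± 0.0209% in KO-ctr, 0.506 ± 0.0390% in WT-EtOH and 0.553 ± 0.0651% in WT-ctr (SD, n = 4 each). Transcripts of the mitochondrial genome took 5.90 to 9.65% of counts in KO-EtOH, 4.83 to 5.80% in KO-ctr, 5.08 to 5.84% in WT-EtOH and 3.51 to 4.22% in WT-ctr, and were highest in KO-EtOH libraries 3 and 4 (8.80 and 9.65%). Of the counts outside mitochondrial transcripts and albumin, the members held 0.367 to 0.552% in KO-EtOH, 0.431 to 0.480% in KO-ctr, 0.546 to 0.652% in WT-EtOH and 0.560 to 0.732% in WT-ctr.

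A score of each library, the median over the 74 tested core members of the log2 CPM difference from the WT-ctr mean, separated the genotypes under both diets. It was -0.56, -0.44, -0.96 and -0.81 in KO-EtOH and -0.52, -0.44, -0.57 and -0.57 in KO-ctr. In WT-EtOH it was -0.10, 0.06, -0.11 and 0.03, and in WT-ctr 0.27, -0.03, -0.16 and -0.06. KO-EtOH split into libraries 1 and 2, at the level of KO-ctr, and libraries 3 and 4, which were lower than every other library. KO-EtOH libraries 1 and 2 also had the lower hepatocyte marker sums of that group (63140 and 52650 CPM, against 90010 and 104700 in libraries 3 and 4) and the higher cholangiocyte sums (383 and 837 CPM, against 244 and 179). Albumin, a large part of the hepatocyte sum, took 3.77 and 3.51% of counts in libraries 1 and 2 and 5.41 and 6.72% in libraries 3 and 4. The part of this in the split was not tested.

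**Figure D1:**
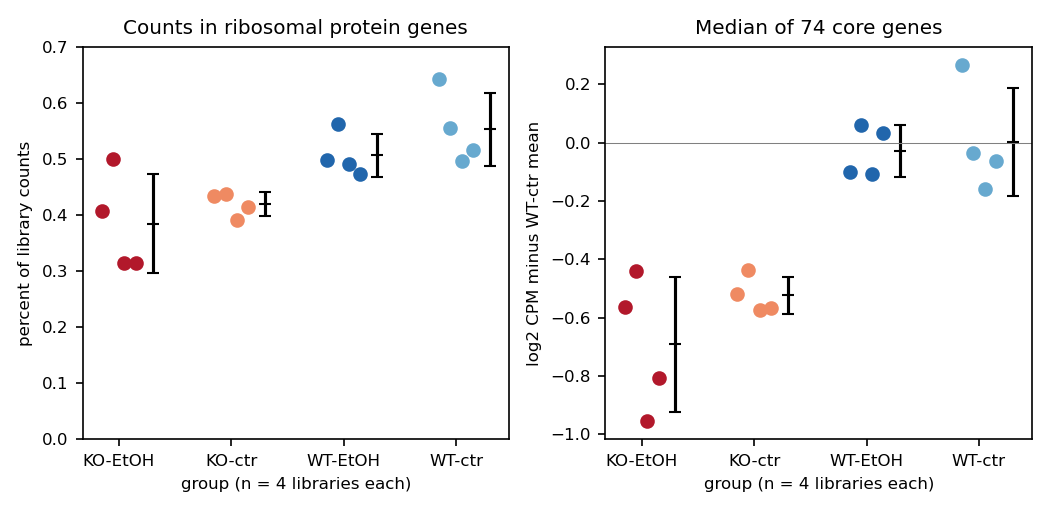
Percent of each library's counts that fell in the 92 members (left) and median log2 CPM difference from the WT-ctr mean over the 74 tested core members (right), by group. Points are libraries 1 to 4 from left to right, bars are the mean and SD of 4 libraries; the scores of the 8 knockout libraries (-0.96 to -0.44) lie below those of the 8 wild-type libraries (-0.16 to 0.27).

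Loss of Tsc1 on control diet lowered a large part of the family. With edgeR's quasi-likelihood test and Benjamini-Hochberg adjustment over all genes, called at an adjusted p under 0.05, 49 of the 83 tested members were lower in KO-ctr than in WT-ctr and 0 were higher, with 0 higher also at an unadjusted p under 0.05 and by DESeq2. Over all 14346 genes tested, 4.91% were called lower and 7.4% higher. The median log2 fold change was -0.52 over the members and 0.01 over all genes. In 59 members every KO-ctr library was below every WT-ctr library, as in 10.2% of all genes. Core members gave 46 lower of 74, with 28 of 44 in the large and 18 of 30 in the small subunit (medians -0.52 and -0.57).

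The clearest single case was Rps25, a small-subunit protein known for its need in internal initiation on viral RNAs. It was counted at 20.04, 19.4, 19.0 and 20.4 CPM in KO-ctr and 40.3, 33.4, 34.5 and 31.0 CPM in WT-ctr. The groups did not overlap, and the fold change was -0.82 ± 0.10 on the log2 scale (SE, adjusted p = 5.32e-05). Rpl30, a large-subunit protein that in yeast binds and regulates its own transcript, stood at 17.3, 17.5, 17.0 and 15.6 CPM in KO-ctr and 38.0, 32.5, 31.8 and 31.0 CPM in WT-ctr. It fell by 0.99 ± 0.14 log2 (adjusted p = 2.45e-04), the largest fall among core members that were called. Rpl37 of the large subunit had 36.1 ± 4.08 CPM in KO-ctr and 60.1 ± 10.2 CPM in WT-ctr (SD, n = 4 each), -0.74 ± 0.12 log2. Rpsa, the small-subunit protein also described as a laminin receptor, had 36.5 ± 1.66 CPM in KO-ctr and 59.4 ± 8.88 CPM in WT-ctr, -0.70 ± 0.12 log2.

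Rpl41, the shortest protein of the ribosome, was counted at 157, 151, 125 and 150 CPM in KO-ctr and 190, 151, 130 and 137 CPM in WT-ctr. The groups overlapped and the estimate was -0.06 ± 0.15 log2 (adjusted p = 0.851). Rps26, which lies at the mRNA exit channel of the small subunit, had -0.22 ± 0.13 log2 (adjusted p = 0.322), and Rps27l, a paralog of Rps27 that p53 induces in human cells, had -0.14 ± 0.11 (adjusted p = 0.442). These 3 were the highest counted of the 34 members that were not called. Scaling by library totals alone, which moves the median of all genes by 0.12 log2, left 21 members called lower, with 1.75% of all genes. Without WT-ctr library 1, whose member share was the highest of all libraries, the count was 34 and the median -0.43, with 2.61% of all genes called lower.

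**Figure D2:**
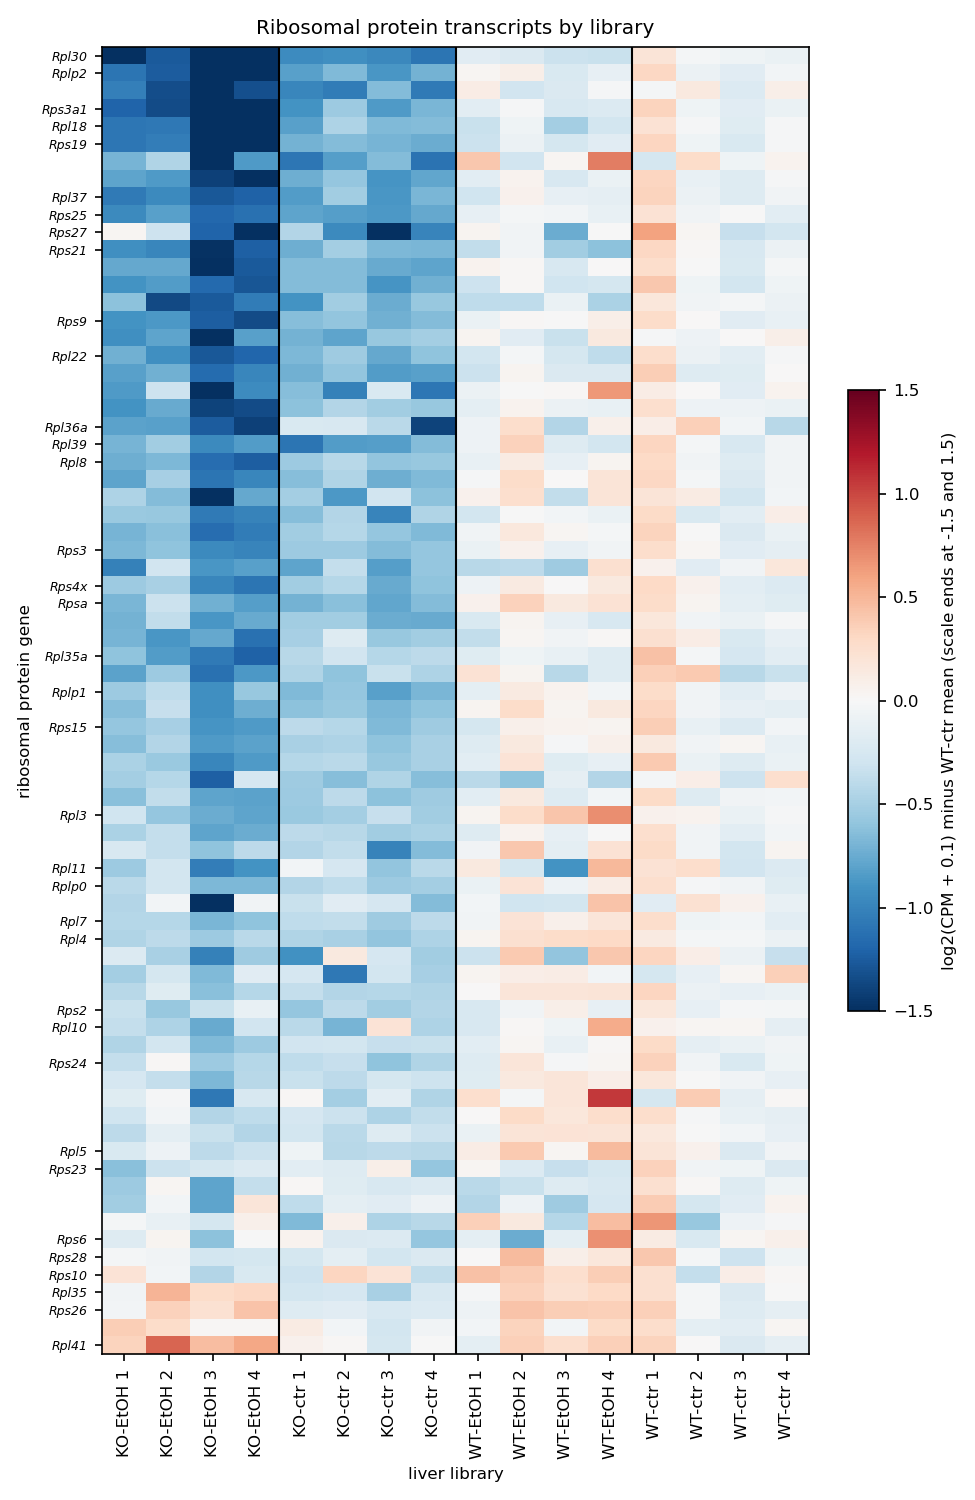
Log2(CPM + 0.1) minus the WT-ctr mean for each of the 74 tested core members (rows, ordered by the mean over knockout libraries) in each library (columns, KO-EtOH, KO-ctr, WT-EtOH and WT-ctr from left to right). Most rows are blue in all 8 knockout columns; Rpl30 and Rplp2 head the plot, and Rpl41, Rps26 and Rpl35 are among its last rows. Rows of members described in the text carry their names.

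After ethanol the knockout was again lower. In KO-EtOH against WT-EtOH 59 of 83 members were called lower, against 19.1% of all genes tested, and 0 were called higher, against 19.6%. At an unadjusted p under 0.05 there were 2 higher, DESeq2 called 0 higher, and upper-quartile scaling and library totals each called 2 higher, Rpl41 and Rps19bp1. The median was -0.65 log2 over the members and -0.01 over all genes. In 60 members every KO-EtOH library lay below every WT-EtOH library (16.1% of all genes). The large subunit had 35 of 44 called lower and the small subunit 20 of 30. Library totals alone move the median of all genes by 0.20 log2 here and left 39 called lower, with 8.68% of all genes.

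Rpl30 was counted at 11.6, 13.8, 8.67 and 7.80 CPM in KO-EtOH and 29.6, 28.5, 26.6 and 26.4 CPM in WT-EtOH. The groups were far apart, at -1.41 ± 0.14 log2 (SE, adjusted p = 5.39e-06 by edgeR). Rps25 was 17.1 ± 1.99 CPM in KO-EtOH and 32.9 ± 1.01 CPM in WT-EtOH (SD, n = 4 each), -0.94 ± 0.10 log2. Rps3a1 had 29.7, 26.9, 21.6 and 19.3 CPM in KO-EtOH and 61.3, 67.6, 58.0 and 59.1 CPM in WT-EtOH, so that its highest KO-EtOH library was under the lowest WT-EtOH one (-1.33 ± 0.14 log2, adjusted p = 7.14e-06). Rps9, a small-subunit protein that binds early in assembly, had 79.7 ± 13.5 CPM in KO-EtOH and 167 ± 9.24 CPM in WT-EtOH (-1.07 ± 0.12 log2). Rpl37 had 27.3 ± 2.76 CPM in KO-EtOH and 54.9 ± 5.71 CPM in WT-EtOH (-1.01 ± 0.12 log2).

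Rpl41 was again apart from the family, with 189, 276, 207 and 224 CPM in KO-EtOH and 136, 192, 179 and 192 CPM in WT-EtOH. The ranges overlapped through 1 knockout library, and the estimate of 0.36 ± 0.15 log2 missed the threshold (adjusted p = 0.066). It was called higher without KO-EtOH library 1 (0.43), without WT-ctr library 1 (0.37), which enters the shared estimate of spread, and with upper-quartile scaling (0.44) or library totals (0.58). Rps24, a small-subunit protein, had -0.32 ± 0.14 log2 (adjusted p = 0.073) and was called lower without KO-EtOH library 2 (-0.45) or WT-ctr library 1 (-0.31) and with the replicate block (-0.33, adjusted p = 0.0478). Rps27l had -0.02 ± 0.11 log2, and its sign turned without KO-EtOH library 4 or WT-EtOH library 2.

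The 2 genotype comparisons set different libraries against each other but share 1 estimate of the spread, so their calls are not independent. Lower in both were 47 members. These were 95.9% of the control-diet calls and 79.7% of the after-ethanol calls. Rps2 and Rps24 were called on control diet alone, and 12 members after ethanol alone, Rpl5, Rpl10 and Rps28 among them. In 52 members every knockout library was below every wild-type library of the same diet in both comparisons. The shares of all genes called lower, or without overlap, in both comparisons were not computed, so these counts have no background beside them. Across the 83 members, which share libraries and are not replicates, the estimates had a Spearman rho of 0.79. The 22 called in neither comparison were 17 core members and 5 others. By level they ranged from Rpl41, Rps27l and Rps26 to genes with few reads such as Rps6, Rps23 and Rps27. A missed threshold does not show that these did not differ.

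**Figure D3:**
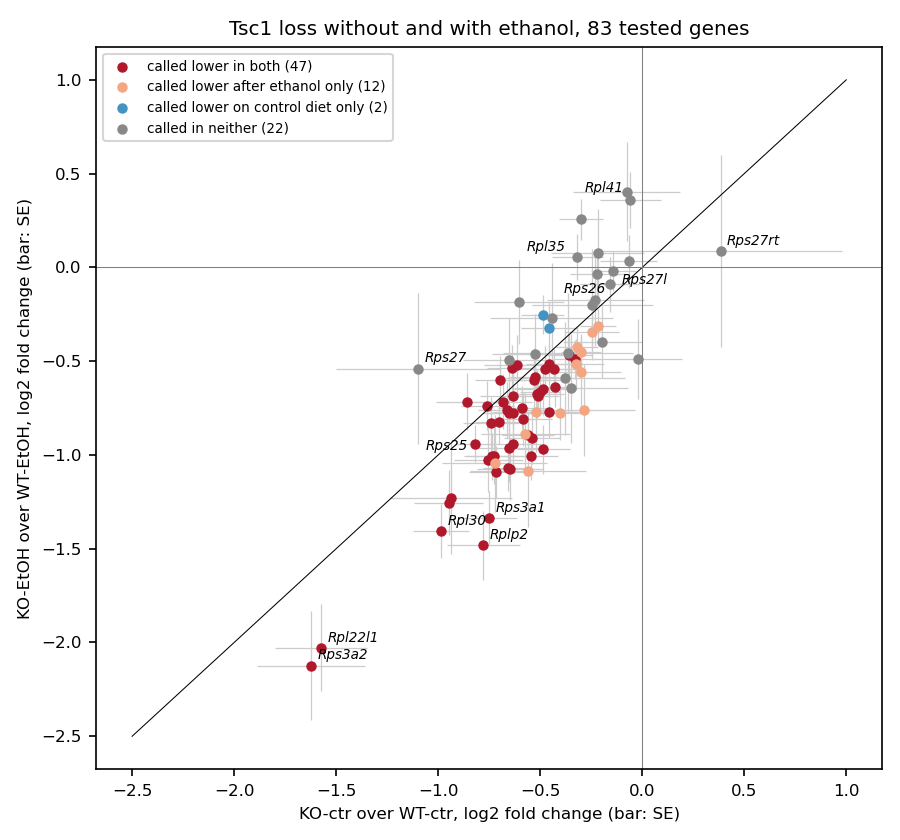
Log2 fold change of each of the 83 tested members in KO-ctr over WT-ctr (horizontal) and KO-EtOH over WT-EtOH (vertical), with SE bars; colour gives in which comparison a member was called lower. The diagonal marks equal values, and 60 members lie below it; Rpl22l1 and Rps3a2 are at the lower left, Rpl41 above 0 on the vertical axis.

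Ethanol itself moved few members in wild type. Against 15.9% called lower and 17.6% called higher over all genes in WT-EtOH versus WT-ctr, 2 members were called lower and 1 higher, and the median was -0.04 log2 (-0.01 over all genes). In 5 members every WT-EtOH library was below every WT-ctr library and in 1, Rps10, above, where all genes gave 15.3 and 15.7%. Rps19bp1, which is no ribosomal protein, was called lower under every alternative run. It had 10.1, 9.99, 9.75 and 11.6 CPM in WT-EtOH and 14.9, 13.2, 13.3 and 16.2 CPM in WT-ctr (-0.47 ± 0.11 log2, SE, adjusted p = 0.00325 by edgeR). The groups did not overlap.

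Rpl3, which lines the peptidyl transferase centre, had 31.97, 37.7, 41.4 and 50.3 CPM in WT-EtOH and 32.5, 32.3, 28.9 and 30.6 CPM in WT-ctr. It was called higher (0.37 ± 0.13 log2, adjusted p = 0.0326) although 1 WT-EtOH library lay inside the WT-ctr range. The call was lost without WT-EtOH library 3 (0.36) or 4 (0.25) or WT-ctr library 3 (0.34) or 4 (0.36), with the replicate block (0.37), with only the 2 groups in the fit, and with upper-quartile or library-total scaling (0.30 and 0.22). Rps21 was called lower at -0.39 ± 0.14 log2 (adjusted p = 0.0479), and this call was lost without any 1 of 11 libraries: KO-EtOH 4, KO-ctr 1 to 4, WT-EtOH 1, 3 or 4, and WT-ctr 1, 2 or 4, with values between -0.42 and -0.28. It was also lost with no filter on low counts (-0.38, adjusted p = 0.0533) and with only the 2 groups in the fit (-0.39, adjusted p = 0.0763). Among the highest counted members, Rpl4 had 607 ± 46.5 CPM in WT-EtOH and 523 ± 35.9 CPM in WT-ctr (0.21 ± 0.10 log2, adjusted p = 0.0982). Rplp1 and Rpl8 had estimates of -0.005 ± 0.12 and -0.03 ± 0.14 log2.

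In the knockout, few members were called with ethanol, and most of these were lower. In KO-EtOH against KO-ctr 11 members were called lower and 3 higher, where 7.11% of all genes were lower and 7.0% higher. Groups that did not overlap were seen in 12 members below and 3 above, against 11.0 and 9.95% of all genes. The 12 below are near the share of all genes. The members called higher or lying above were fewer than the shares of all genes. The median was -0.15 log2 over the members and 0.003 over all genes. Among those that fell were Rps3a1, Rpl30, Rps19, Rpl18, Rplp2, Rpl35a, Rps9, Rps3a2, Rps21 and Rpl37. Rps3a1 had 29.7, 26.9, 21.6 and 19.3 CPM in KO-EtOH and 36.5, 46.9, 37.9 and 42.6 CPM in KO-ctr, with no overlap (-0.75 ± 0.14 log2, adjusted p = 0.00265). Rps19, the gene most often mutated in Diamond-Blackfan anaemia, had 20.9 ± 4.41 CPM in KO-EtOH and 31.6 ± 0.865 CPM in KO-ctr (SD, n = 4 each), -0.60 ± 0.14 log2. Rpl18 had 16.4 ± 4.54 CPM in KO-EtOH and 27.1 ± 2.73 CPM in KO-ctr, -0.72 ± 0.17 log2.

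The 3 that rose were Rpl35, Rpl41 and Rps26. Rpl35, a large-subunit protein near the exit tunnel, had 31.4, 46.6, 39.5 and 40.4 CPM in KO-EtOH and 26.9, 27.4, 23.2 and 27.7 CPM in KO-ctr. Every ethanol library was above every control library (0.59 ± 0.12 log2, SE, adjusted p = 0.00606 by edgeR). Rpl41 had 189, 276, 207 and 224 CPM in KO-EtOH and 157, 151, 125 and 150 CPM in KO-ctr, likewise with no overlap (0.62 ± 0.15 log2, adjusted p = 0.0122). Rps26 had 66.1, 86.1, 79.5 and 91.0 CPM in KO-EtOH and 59.3, 60.4, 57.6 and 58.7 CPM in KO-ctr. These did not overlap either, but the call of Rps26 (0.45 ± 0.13 log2, adjusted p = 0.0335) was lost without KO-EtOH library 2, 3 or 4, without any 1 of the KO-ctr libraries, with the replicate block and with library totals, at values of 0.39 to 0.47. The call of Rps3a2 (-1.01 ± 0.30 log2, adjusted p = 0.0343) was lost without KO-EtOH library 3 or 4 or KO-ctr library 1, 2 or 4, at -1.02 to -0.79, with library totals (-1.04) and with only the 2 groups in the fit (adjusted p = 0.0796). Rpl8 was not called (-0.40 ± 0.14 log2, adjusted p = 0.0614) and was called lower without KO-EtOH library 1 (-0.47) or 2 (-0.49) or WT-ctr library 1 (-0.39), with the replicate block (-0.41, adjusted p = 0.0389) and by DESeq2 (-0.39, adjusted p = 0.042).

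The number of members called lower after ethanol in the knockout moved with single libraries, as did the share of all genes called lower (7.11% with every library in). It was 6 without KO-EtOH library 3, KO-EtOH library 4 or KO-ctr library 2, where 4.195, 4.07 and 3.90% of all genes were called lower. It was 7 without KO-ctr library 1 or 4, with 4.73 and 4.52% of all genes. The highest count, 16, came without KO-EtOH library 1, with 7.86% of all genes.

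The test of the difference between the 2 ethanol effects, the interaction of genotype and ethanol, called 0 members lower and 0 higher by edgeR, against 1.28% of all genes called lower and 0.523% called higher (1.81% in either direction). At an unadjusted p under 0.05 it gave 6 lower and 2 higher, and DESeq2 called 0 lower and 1 higher, Rps19bp1. Of all genes DESeq2 called 3.01% lower and 2.04% higher. The 3 members with the smallest p were Rps19bp1 at 0.56 ± 0.15 log2 (adjusted p = 0.0732), Rps3a1 at -0.58 ± 0.20 (adjusted p = 0.121) and Rplp2 at -0.70 ± 0.25 (adjusted p = 0.148).

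The stalk of the large subunit, which recruits and activates the GTPase translation factors, is made of Rplp0 as its base and heterodimers of Rplp1 and Rplp2. All 3 were called lower with Tsc1 loss under both diets, where 46 (control diet) and 55 (after ethanol) of the 74 core members were. Rplp0 averaged 199 ± 28.3 CPM in KO-EtOH, 203 ± 10.4 in KO-ctr, 289 ± 30.1 in WT-EtOH and 283 ± 36.4 in WT-ctr (SD, n = 4 each). Rplp1 averaged 207 ± 31.0 CPM in KO-EtOH, 194 ± 12.6 in KO-ctr, 314 ± 26.2 in WT-EtOH and 315 ± 43.6 in WT-ctr. Rplp2 had 22.4, 20.2, 13.0 and 10.7 CPM in KO-EtOH, 27.2, 30.3, 26.3 and 29.2 in KO-ctr, 49.2, 51.1, 41.1 and 44.0 in WT-EtOH, and 59.5, 45.1, 42.6 and 46.6 in WT-ctr. With Tsc1 loss after ethanol the fold changes were -0.54 ± 0.12 log2 for Rplp0, -0.60 ± 0.12 for Rplp1 and -1.48 ± 0.18 for Rplp2 (SE). A ratio of counts within a library does not depend on scaling. Per 100 Rplp1 counts there were 10.5, 8.45, 7.88 and 5.11 Rplp2 counts in KO-EtOH, 13.8, 14.5, 14.7 and 15.1 in KO-ctr, 17.4, 14.9, 12.7 and 14.5 in WT-EtOH, and 15.7, 14.9, 15.2 and 15.7 in WT-ctr. All 4 KO-EtOH values were below the other 12. This ratio was chosen after the values were seen and gets no test.

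**Figure D4:**
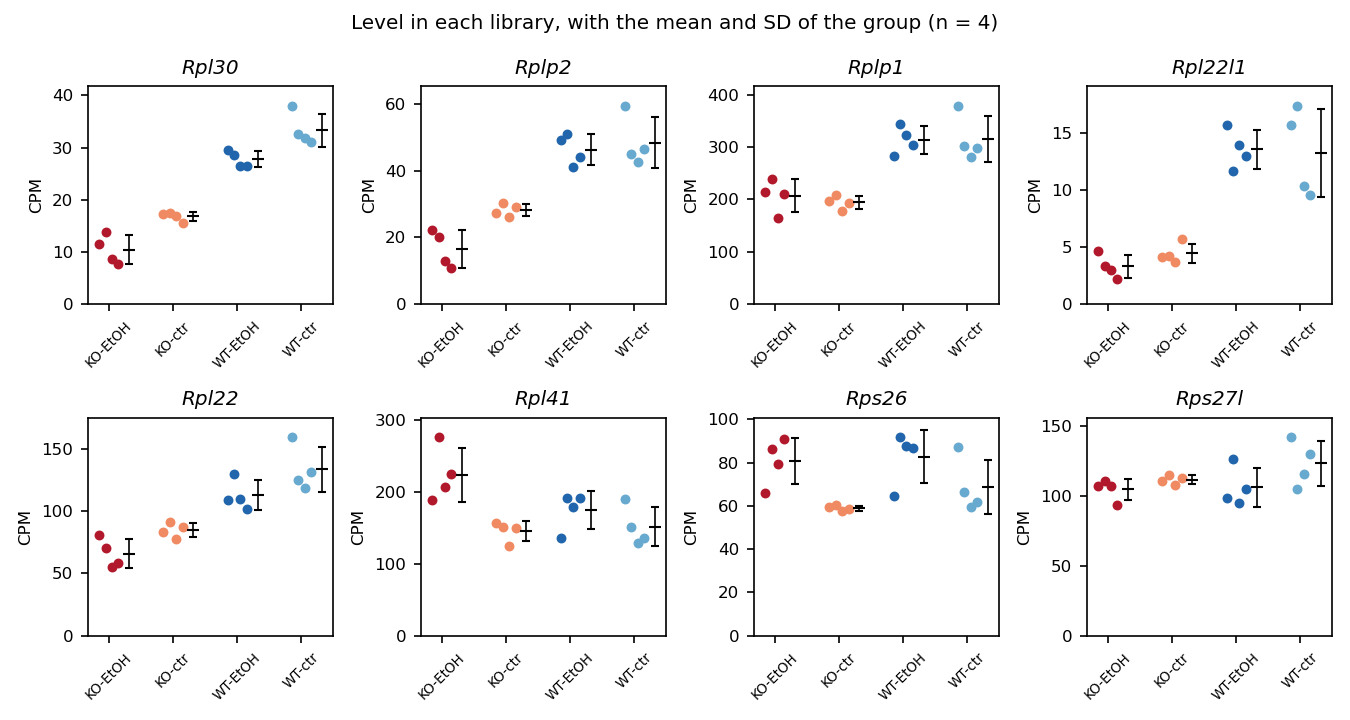
CPM of 8 members in each library (points, libraries 1 to 4 from left to right in each group) with the mean and SD of the group. Rpl30 and Rplp2 are lowest in KO-EtOH, Rpl22l1 is under 6 CPM in all knockout libraries and over 9 in all wild-type ones, and Rpl41 has its highest mean in KO-EtOH.

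RPL22 and RPL22L1 are paralogs that take the same place in the ribosome, and in mouse RPL22 is known to repress expression of Rpl22l1. Both were lower in the knockout. Rpl22l1 had 4.69, 3.35, 2.97 and 2.25 CPM in KO-EtOH, 4.12, 4.26, 3.73 and 5.68 in KO-ctr, 15.7, 11.6, 13.97 and 12.9 in WT-EtOH, and 15.7, 17.4, 10.4 and 9.52 in WT-ctr. The 8 knockout libraries were all below the 8 wild-type libraries, at -1.57 ± 0.22 log2 on control diet (SE, adjusted p = 2.90e-04 by edgeR) and -2.03 ± 0.23 after ethanol (adjusted p = 1.36e-05). Rpl22 fell by 0.65 ± 0.13 log2 on control diet (adjusted p = 0.00312) and by 0.77 ± 0.13 after ethanol (adjusted p = 2.58e-04). Per 100 Rpl22 counts, Rpl22l1 had 4.97 ± 0.856 counts in KO-EtOH, 5.23 ± 0.867 in KO-ctr, 12.2 ± 2.28 in WT-EtOH and 9.96 ± 2.86 in WT-ctr (SD, n = 4 each).

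The other tested paralogs and copies did not follow one pattern. Rps3a2, annotated as a processed pseudogene of Rps3a1, had 0.842, 1.08, 0.712 and 0.374 CPM in KO-EtOH, 1.49, 2.01, 1.03 and 1.59 in KO-ctr, 3.98, 4.12, 2.97 and 2.19 in WT-EtOH, and 4.73, 4.58, 4.55 and 4.99 in WT-ctr. It was called lower with Tsc1 loss on control diet (-1.62 ± 0.26 log2) and after ethanol (-2.12 ± 0.29), but reads of such a copy and of its parent are easily exchanged, so its own level is uncertain. Rpl37rt, a transcribed pseudogene of Rpl37, was also called lower under both diets (-0.53 ± 0.16 and -0.60 ± 0.17 log2). Rpl7l1, a paralog with a role in ribosome assembly, was called lower after ethanol (-0.31 ± 0.09 log2) and was at -0.22 ± 0.09 on control diet (adjusted p = 0.133), while its parent Rpl7 was called lower under both (-0.43 ± 0.11 and -0.64 ± 0.11). Rpl36al was not called (-0.08 ± 0.26 on control diet and 0.40 ± 0.26 log2 after ethanol), while Rpl36a was called lower after ethanol (-1.09 ± 0.30). Rps27l was not called under either diet, and neither were Rps27 and Rps27rt, which were counted at 2.11 CPM or less in every library. Rps4l was not called (-0.19 ± 0.19 and -0.40 ± 0.19 log2), while Rps4x was called lower under both (-0.59 ± 0.14 and -0.81 ± 0.14).

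Rpl5 and Rpl11, which join the smallest rRNA of the large subunit before it enters the ribosome, were not called on control diet (-0.32 ± 0.14 and -0.35 ± 0.28 log2). After ethanol Rpl5 was called lower, with 9.75, 10.8, 8.67 and 9.11 CPM in KO-EtOH and 12.4, 14.99, 11.7 and 15.9 CPM in WT-EtOH (-0.52 ± 0.14 log2, SE, adjusted p = 0.00678 by edgeR). The groups did not overlap. Rpl11 had -0.65 ± 0.29 log2 (adjusted p = 0.0865). Rps6, whose protein is the classical substrate of the S6 kinases downstream of mTORC1, had 1.16 ± 0.239 CPM in KO-EtOH, 1.12 ± 0.215 in KO-ctr, 1.33 ± 0.612 in WT-EtOH and 1.33 ± 0.145 in WT-ctr (SD, n = 4 each) and was called in no comparison. The 4 X-linked core members, Rpl10, Rps4x, Rpl36a and Rpl39, were all called lower after ethanol, and Rps4x and Rpl39 also on control diet. Of all 74 tested core members, 55 were called lower after ethanol and 46 on control diet. Over all genes the shares were 19.1 and 4.91%.

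The counted levels of core members lay far apart. Per kb of transcript, WT-ctr means ran from 0.323 CPM in Rpl23a to 630.7 CPM in Rplp1, a 1951-fold range. Rps15 (442.8), Rpl8 (370.5), Rpl41 (347.5) and Rpl4 (340.1 CPM per kb) followed Rplp1. Rps6, which every ribosome carries, stood at 1.51 CPM per kb. Ribosomal protein genes have many processed pseudogenes, and a read that maps to several places may be dropped from a count. The share of a transcript's 75-base stretches, the read length here, that also occur in the transcript of another annotated gene went with the level, with a Spearman rho of -0.62 across core members as a description. The median level was 194.6 CPM per kb where under 25% of stretches were shared, 75.7 where 25 to 60% were, and 15.02 where 60% or more were. Rps3 shared 0% and Rps6 84.1%, Rpl23a shared 81.7%, and Rps29 was low with a share of 30.7%. What part of the range in level this sharing accounts for was not tested.

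**Figure D5:**
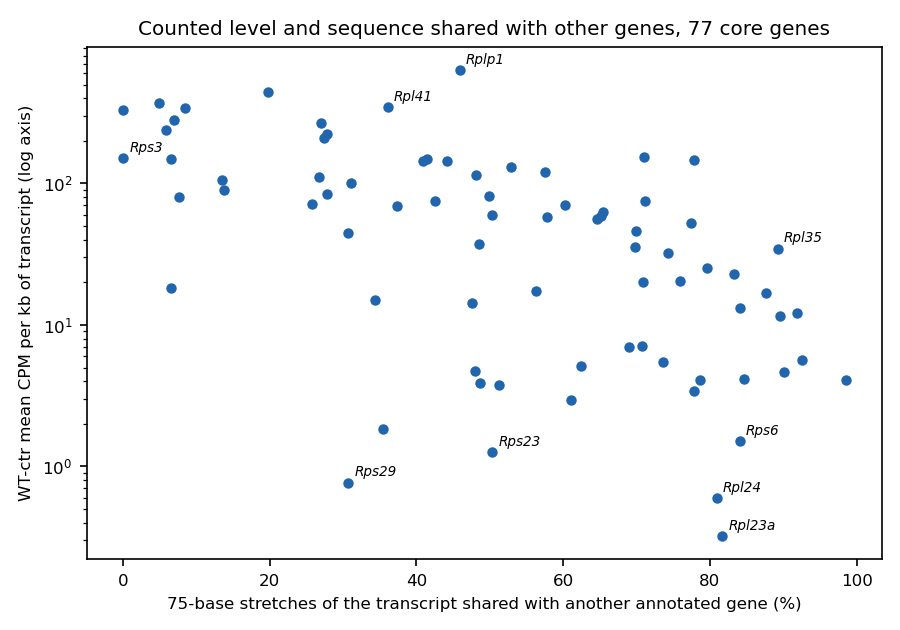
WT-ctr mean CPM per kb of transcript (log axis) of each of the 77 core members against the percent of its 75-base stretches that occur in another annotated gene. Levels tend to fall with the share (Spearman rho -0.62), with Rps6, Rpl24 and Rpl23a low at over 80%. The highest point is Rplp1 at 45.9%, and Rps29 and Rps23 are low at intermediate shares. Rps20 (18.1 CPM per kb at 6.55%) and Rps28 (154.5 at 71.1%), which carry no name in the plot, also depart from this trend.

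The genotype difference had nearly the same median in all classes of sharing on control diet. The medians of the log2 fold change with Tsc1 loss on control diet were -0.54, -0.53 and -0.54 in the 3 classes of sharing, from low to high, and 11 of 12, 22 of 30 and 13 of 32 were called lower. After ethanol the medians were -0.73, -0.68 and -0.55, with 11 of 12, 23 of 30 and 21 of 32 called lower. By level, 38 of 45 core members with a mean of 20 CPM or more were called lower on control diet, 6 of 12 between 5 and 20 CPM, and 2 of 17 under 5 CPM, while the medians were -0.54, -0.51 and -0.52. Reads assigned to the 275 rows of ribosomal protein pseudogenes came to 3.05 ± 0.0972 per 100 member counts in KO-EtOH, 3.07 ± 0.0828 in KO-ctr, 3.04 ± 0.0720 in WT-EtOH and 2.98 ± 0.124 in WT-ctr (SD, n = 4 each). These ratios overlapped between all groups.

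Members with a long and a short run at the start had like values. Of the core members with a run of 8 bases or more, 22 of 39 were called lower on control diet and 26 of 39 after ethanol. Of those with a shorter run, 11 of 17 and 13 of 17 were. The medians were -0.50 and -0.59 log2 on control diet and -0.65 and -0.69 after ethanol. The Spearman rho between the length of the run and the fold change was 0.07 on control diet and 0.02 after ethanol over 56 core members.

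Other mRNAs known to carry a TOP tract were lower as well. Of 22 such genes outside the name rule, edgeR called 13 lower and 0 higher on control diet, against 4.91 and 7.4% of all genes. After ethanol it called 17 lower and 0 higher, against 19.1 and 19.6% of all genes. In both comparisons 0 were higher at an unadjusted p under 0.05 and by DESeq2. The medians were -0.41 and -0.46 log2. Eef2, the translocation factor, had 1042 ± 59.8 CPM in KO-ctr and 1572 ± 101 CPM in WT-ctr (SD, n = 4 each), -0.59 ± 0.10 log2. After ethanol it had 870 ± 40.6 CPM in KO-EtOH and 1566 ± 60.3 CPM in WT-EtOH, -0.85 ± 0.10 log2. Eef1a1, which brings aminoacyl-tRNA, had -0.40 ± 0.11 and -0.50 ± 0.11 log2. Gas5, a noncoding host of small nucleolar RNAs with a TOP start, had -0.61 ± 0.13 and -0.79 ± 0.14. Rack1, which encodes a ribosome constituent outside the name rule, was called lower under both diets (-0.64 ± 0.11 and -0.86 ± 0.11 log2), while Fau was not.

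Mitochondrial ribosomal proteins are encoded by separate nuclear genes and build another ribosome. Of 77 tested, 14 were called lower and 0 higher on control diet, where all genes gave 4.91 and 7.4%, with 2 higher at an unadjusted p under 0.05 and 0 higher by DESeq2. After ethanol 21 were lower and 11 higher, against 19.1 and 19.6% of all genes. The medians were -0.14 and -0.12 log2. In WT-EtOH against WT-ctr 19 were called lower and 5 higher, against 15.9 and 17.6% of all genes, with a median of -0.15. Mrpl18 had the smallest p there (-1.01 ± 0.12 log2, SE, adjusted p = 2.4e-05). Whether the 2 families differ was not tested.

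Among 13 chaperones and import factors of ribosomal proteins, 5 were called lower and 0 higher on control diet, against 4.91 and 7.4% of all genes. At an unadjusted p under 0.05 and by DESeq2, 0 were higher as well. After ethanol 9 were lower and 1 higher, against 19.1 and 19.6% of all genes. Ipo7, an importin that carries ribosomal proteins, had -0.59 ± 0.11 and -0.48 ± 0.11 log2, and Heatr3, the chaperone of RPL5, -0.42 ± 0.12 and -0.60 ± 0.12. Ipo9 was the one called higher after ethanol (0.26 ± 0.07). Among 14 regulators of TOP mRNAs and the cap, Cnbp was called lower on control diet (-0.59 ± 0.11 log2) and Eif4ebp1, which encodes a repressor that binds the cap-binding protein eIF4E, higher (0.66 ± 0.14), while DESeq2 called 3 lower and 1 higher. By edgeR this is 1 in each direction, near the shares of all genes (4.91 and 7.4%). After ethanol 3 were called lower and 3 higher, near the shares of all genes (19.1 and 19.6%), Cnbp (-0.67 ± 0.11) and Eif4ebp1 (0.58 ± 0.13) among them.

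Of 12 transcription factors tied to ribosomal protein promoters, 0 were called lower on control diet, with 0 also at an unadjusted p under 0.05 and by DESeq2, and 1, E2f1, was higher (0.73 ± 0.18 log2, SE). All genes gave 4.91% lower and 7.4% higher there, so 1 higher of 12 is near that share. After ethanol 7 were lower and 2 higher, against 19.1 and 19.6% of all genes. Myc had 13.8 ± 2.78 CPM in KO-EtOH and 34.6 ± 17.1 CPM in WT-EtOH (SD, n = 4 each), -1.33 ± 0.40 log2. In wild type ethanol raised Myc by 2.71 ± 0.43 log2, against 5.29 ± 2.99 CPM in WT-ctr. Of 7 tested genes of the MDM2 and p53 response, 2 were called higher and 0 lower on control diet, where all genes gave 7.4 and 4.91%. At an unadjusted p under 0.05 there were 5 higher and 1 lower, and DESeq2 called 3 higher and 1 lower. After ethanol 4 were higher and 2 lower, against 19.6 and 19.1% of all genes. Eda2r and Ccng1 were called higher on control diet (3.67 ± 0.51 and 0.62 ± 0.17 log2) and after ethanol (3.30 ± 0.50 and 0.65 ± 0.17). Cdkn1a, which encodes the cell cycle inhibitor p21, was called lower after ethanol, with 38.2 ± 18.1 CPM in KO-EtOH and 166 ± 56.8 CPM in WT-EtOH (-2.12 ± 0.42 log2). Its estimate for ethanol was above 0 in both genotypes, at 6.37 log2 in wild type and 3.03 in the knockout. The interaction estimate was -3.34 log2.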

How the data were processed

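RNA was measured in 16 liver libraries by polyA-selected, stranded single reads of 75 bases, per the labels' protocols. The authors deposited a table of raw counts for each gene. The submitters' processing notes name Trimmomatic 0.36, HISAT2 2.1.0, HTSeq and the build GRCm38. How HTSeq treated strand and multiply mapped reads, and with which annotation, was not given in the sources used here, so reads shared by near-identical genes or by overlapping genes may be lost or misplaced. The 7436 of 55487 rows with no symbol (0.227 to 0.479% of counts) were left out. The authors' own table of comparisons was not used.

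Counts were tested with edgeR 4.0.16 (R 4.3.3; filterByExpr on the 4 groups, TMM, 1 quasi-likelihood model of 16 libraries, 12 residual degrees of freedom, Benjamini-Hochberg over 14346 genes), which was tested on simulated data. The labels state no test. Tested were Tsc1 loss on control diet and after ethanol, ethanol in wild type and in knockout, and the interaction of both. DESeq2 1.42.0, other scalings, no filter on low counts beyond a count in any library, a replicate block, 2-group fits and libraries left out were alternatives. Log2 score values use a prior count of 2. The members and gene lists were chosen with earlier results of these data known, so no test over a list was made. Named members were, per contrast, the 6 called with the smallest p, the 3 with the largest fold change, those against the majority, the 3 highest uncalled, the 3 smallest interaction p, the tested paralogs with their parents, the stalk genes, Rps6 and Rpsa; others named were chosen after their values were seen, and some genes that these rules or counts take in are not reported here by name. Rpl37rt, Rpl6l and Rps12l1 were moved from the core to the copies after the table was seen. Transcripts, lengths and shared stretches come from GENCODE M21 (GRCm38) and starts from RefSeq (GRCm38.p6).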

Additional observations from a re-analysis of the deposited data

Results flagged for a closer look

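In 3 of 136 member and group combinations looked at, 1 library stood apart from the other 3 of its group, where chance flags about 1 in 20. Rpl7 had 116 CPM in KO-ctr library 3, against 127 to 130 CPM in the other KO-ctr libraries. Rpl7l1 had 86.9 CPM in WT-EtOH library 4, against 75.7 to 77.2 CPM in the others. Rps27 had 0.773 CPM in WT-EtOH library 3, against 1.31 to 1.39 CPM in the others, at a level where few reads decide the value.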

How the results depend on the processing

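The number of members called lower with Tsc1 loss stayed within 1.5 times under every alternative run except library totals, which gave 21 on control diet (49 as reported) and 39 after ethanol (59). Library totals called 1.75 and 8.68% of all genes lower, against 4.91 and 19.1% in the main fit. Leaving out single libraries gave 34 to 53 on control diet and 55 to 61 after ethanol, with 0 higher on control diet and 0 to 1 after ethanol. Over all genes these runs gave 2.54 to 5.93% lower on control diet and 15.65 to 18.98% lower after ethanol. The shares called higher were 4.93 to 9.01% and 16.95 to 20.01%. Upper-quartile scaling and library totals each called 2 higher after ethanol, where 23.5 and 27.8% of all genes were called higher. For ethanol in wild type, library totals called 4 lower and 0 higher, no filter 1 lower, the 2-group fit 1 lower and 0 higher, upper quartile and the replicate block 0 higher, DESeq2 2 higher, and single libraries left out 1 to 3 lower and 0 to 3 higher. Of all genes, library totals called 21.1% lower and 11.1% higher, no filter 6.70% lower, and the 2-group fit 14.6% lower and 16.4% higher. Upper quartile, the replicate block and DESeq2 called 14.7, 17.8 and 18.5% higher. Single libraries left out gave 12.4 to 17.3% lower and 13.9 to 18.8% higher over all genes. For ethanol in knockout, library totals called 7 lower and single libraries left out 6 to 16, with 6.48% and 3.90 to 7.86% of all genes called lower. Without KO-EtOH libraries 1 and 2 together there were 18 lower in the knockout, 4 lower in wild type and 3 lower in the interaction, but these are the KO-EtOH libraries with the higher member scores, so leaving them out selects on the outcome and the change has no weight. Of all genes 6.53, 17.3 and 0.487% were called lower in that run. Upper quartile and DESeq2 each called 1 higher in the interaction, with 0.885 and 2.04% of all genes called higher. The cause of these changes was not tested.

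Signs turned only where the estimate was near 0. Rpl41 on control diet was 0.0636 with library totals and -0.129 to 0.0716 with single libraries left out, above 0 without KO-ctr library 3 (0.00889) or WT-ctr library 1. Rps27l after ethanol was 0.0619 with upper quartile, 0.19 with library totals and -0.0551 to 0.0837 with single libraries left out, above 0 without KO-EtOH library 4 (0.0389) or WT-EtOH library 2. For ethanol in wild type, Rpl8 ran from -0.0958 to 0.082 with single libraries left out, above 0 without WT-EtOH library 1 (0.00522), WT-EtOH library 3 (0.00295) or WT-ctr library 1. Rplp1 was 0.000251 with no filter and 0.000917 with the replicate block, and -0.0617 to 0.0959 with single libraries left out, above 0 without WT-EtOH library 1 (0.042), WT-EtOH library 4 (0.00951) or WT-ctr library 1. For ethanol in knockout, Rpl4 was -0.00103 with library totals and Rplp1 -0.0511 without KO-EtOH libraries 1 and 2.

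Replicate numbers did not pair the libraries: 7 of 24 same-numbered pairs correlated over 0.1 (range -0.15 to 0.41), and 6 of 16 libraries correlated best with their own number. The replicate block changed the count of calls by over 1.5 times in no genotype comparison. Of the 17 tested core members under 5 CPM, 2 were called lower on control diet and 5 after ethanol. Whether depth sets this was not tested.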
